A study of Mus musculus with 18 samples.

Results

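The genes described here encode the proteins of the cytosolic ribosome, the particle that translates nuclear-encoded mRNA. They were taken from the deposited count tables by biotype and symbol: protein-coding genes named Rpl or Rps with a number and at most a short suffix, the stalk genes Rplp0 to Rplp2, and Rpsa. The rule gave 83 genes of 55487, of which 51 are named Rpl and 32 Rps. It used no expression value. The genes were measured by RNA-seq in alphaTC1 cells, a mouse line of glucagon-producing pancreatic alpha cells, in 18 libraries from 2 experiments. In experiment 1 the cells had received an empty vector (EV, n = 3) or an shRNA against Smndc1, a splicing factor (shSmndc1, n = 3), and were taken on day 5. In experiment 2 all cells had also received RIP-mCherry, a red fluorescent reporter under the rat insulin promoter. Its groups were empty vector with the reporter (EV_RIP, n = 4) and cells with the Smndc1 shRNA that were sorted as mCherry-negative (negative cells, n = 4) or mCherry-positive (positive cells, n = 4). Neither the day of experiment 2 nor a sort of the EV_RIP cells is stated. Nothing in the labels ties replicates to separate cultures, so p-values rest on differences among libraries that could be technical.

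A ribosome has a small subunit, which reads the mRNA, and a large subunit, which joins the amino acids. Each is built in the nucleolus from ribosomal RNA and proteins that are imported from the cytosol. Ribosomal protein mRNAs are among the most abundant of a growing cell. Many start with a C followed by a run of pyrimidines, the terminal oligopyrimidine or TOP motif, through which mTOR and Larp1 control their translation. RNA-seq of total mRNA measures the amount of these mRNAs and not how often they are translated. Several family members also lie around small nucleolar RNAs (snoRNAs), which are cut out of their introns, and the annotation places a snoRNA within the span of 30 of the 83.

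Facts of the libraries bear on every comparison. Libraries held 34045268 to 103048766 counts, apart from negative replicate 3 with 8084574 and negative replicate 4 with 23744051. Smndc1 stood at 39.1 ± 3.54 CPM (counts scaled to library size; SD, n = 3) in EV and 10.1 ± 0.54 in shSmndc1. It stood at a mean of 44.5 CPM in EV_RIP, 20.1 in positive cells and 37.0 in negative cells, and the difference of negative cells from EV_RIP did not pass the test (log2 fold change -0.27, adjusted p = 0.378, edgeR). EV_RIP replicate 1 stood apart: mitochondrially encoded genes took 0.587% of its counts against 2.34 to 4.60% in the other libraries of experiment 2. The alpha cell gene Gcg lay between 3774 and 19422 CPM in all 18 libraries, whereas Gc, another alpha cell marker, had 0 counts in each. Of the 3 leukocyte markers, Ptprc did not exceed 0.481 CPM, while Cd68 lay between 6.19 and 18.2 CPM and Csf1r between 9.32 and 18.6 CPM.

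The promoter sequences of the genes on which the comparisons turn are shown first. RefSeq windows on GRCm38.p6 matched 63 of the 83 genes, with 75 start sites. Each line gives 60 bases on the gene's strand, from 40 bases before the annotated start to 20 bases from it, and capitals mark CTTTCC, the pyrimidine-rich word searched for. Rpl15, Rpl13a, Rps4x and Rpl19 are shown because they were the only genes of the family that passed the edgeR test over all libraries with TMM scaling and no block, and Rpl22 with Rpl22l1 because the fold changes of these paralogs had opposite signs in shSmndc1 and in positive cells. Rpl19 and Rpl22 have another annotated start each that is not shown.
Rpl15 (chr14:18270967-18271026, minus strand): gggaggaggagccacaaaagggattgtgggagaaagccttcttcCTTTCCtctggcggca
Rpl13a (chr7:45128726-45128785, minus strand): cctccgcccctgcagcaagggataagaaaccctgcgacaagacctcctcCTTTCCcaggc
Rps4x (chrX:102189372-102189431, minus strand): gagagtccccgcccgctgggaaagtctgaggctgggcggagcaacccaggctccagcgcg
Rpl19 (chr11:98026670-98026729, plus strand): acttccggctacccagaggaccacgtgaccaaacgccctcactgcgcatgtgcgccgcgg
Rpl22 (chr4:152325686-152325745, plus strand): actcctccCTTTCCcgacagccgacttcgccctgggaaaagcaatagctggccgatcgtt
Rpl22l1 (chr3:28805468-28805527, plus strand): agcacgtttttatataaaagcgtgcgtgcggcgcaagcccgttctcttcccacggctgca
In the 75 windows of the family, CTTTCC was present in 13 of the 60-base windows (17.3%), against 2.89% of 32851 promoter windows of all genes. Its reverse complement GGAAAG was in 1.33% against 2.55%. A C at the start followed by 4 pyrimidines was found in 17.3% of the family's windows and 2.51% of all, and TATAAA in 2.67% and 2.65%. These matches describe letters in the windows and say nothing about binding. Windows of a gene with several starts were counted separately even where they overlap, and the same CTTTCC of Rpl35a was counted in more than 1 window.

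Levels within the family spanned several orders of magnitude. In the authors' deposited FPKM, which divide by gene length, the highest means over all libraries were those of Rps29 (1120 FPKM), Rpl19 (1092 FPKM) and Rps27a (1031 FPKM), which is made as a fusion to ubiquitin. The experiments were scaled separately, so these means order the genes and compare no groups. Rpl10l had 0 counts in all 18 libraries and Rpl39l 1 count in total. Rpl3l, the muscle-type paralog of Rpl3, had 2 to 18 counts per library. These 3 paralogs were thus at or near the detection limit, and Rpl10l and Rpl39l entered no test. The next lowest was the small-subunit gene Rps10 with 1.48 FPKM, and it shares 20.6% of its exonic bases on its own strand with a read-through gene. Rpl3l was tested in experiment 1 and not in experiment 2, so 81 genes were tested in the first and 80 in the second. Some values are uncertain because exons overlap or near-identical copies exist: 15 members share over 10% of their exonic bases with another gene, and 62 have a named pseudogene copy, with 24 copies each for Rpl31 and Rps12. Rows of pseudogenes held 4.90 to 6.16% as many counts as the family itself.

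The family took a like share of counts in the groups of each experiment. Its share was 2.69%, 2.53% and 2.55% in EV and 2.60%, 2.47% and 2.31% in shSmndc1 for replicates 1 to 3, or 2.59 ± 0.088% against 2.46 ± 0.143% (SD, n = 3). In EV_RIP the 4 libraries held 3.82%, 3.37%, 3.11% and 2.701%. Negative cells held 3.14%, 3.13%, 3.00% and 3.24%, and positive cells 2.86%, 3.05%, 3.48% and 3.35%. The 2 ends of the EV_RIP group enclosed every sorted library, so that the widest spread of experiment 2 lay among its controls. The plot of shares by library shows this. A lower share and fewer molecules per cell cannot be told apart from these data.

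**Figure D1:**
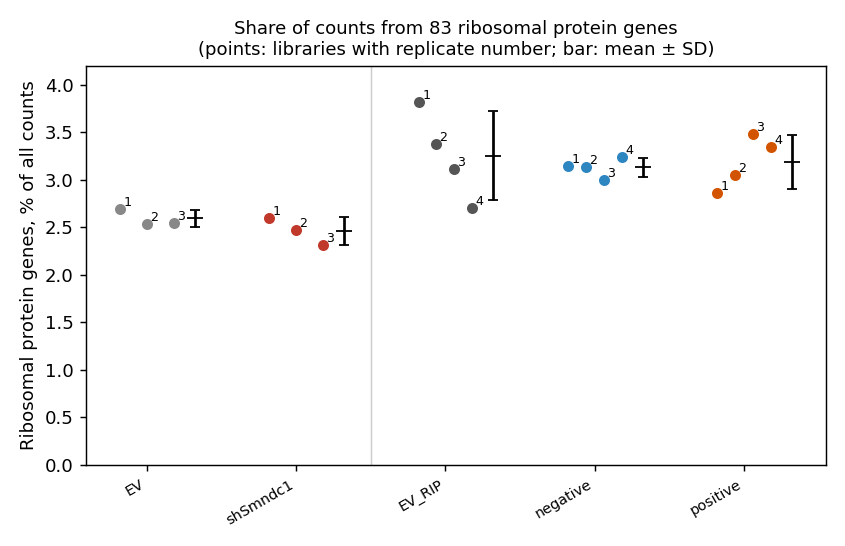
Share of all counts of a library (percent, y axis) that fell on the 83 ribosomal protein genes, per library (points) with the mean ± SD of each group (bars). EV and shSmndc1 libraries lie between 2.31 and 2.69%, and the 4 EV_RIP libraries span 2.701 to 3.82%, which takes in all 8 sorted libraries.

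In each group a single library held the highest value for many genes of the family. The same was not counted over all genes, so it may not be particular to the family. EV_RIP replicate 1 was the highest of its group for 66 of 81 genes and EV_RIP replicate 4 the lowest for 64. Their median deviations from the group mean were 0.23 and -0.20 on the log2 scale. In shSmndc1, replicate 1 was the highest for 73 of 81 genes and replicate 3 the lowest for 59, with median deviations of 0.11 and -0.13. In positive cells, replicate 3 was the highest for 49 genes and replicate 1 the lowest for 54. The spread was smaller in EV, where replicate 1 was the highest for 46, and in negative cells, where replicate 1 was the highest for 37. Within each experiment, the shifts of these EV_RIP replicates (0.23 and -0.20) and shSmndc1 replicates (0.11 and -0.13) can be set beside the family's median differences from empty vector, -0.12 in negative cells, -0.08 in positive cells and -0.08 in shSmndc1. What they come from was not tested.

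**Figure D2:**
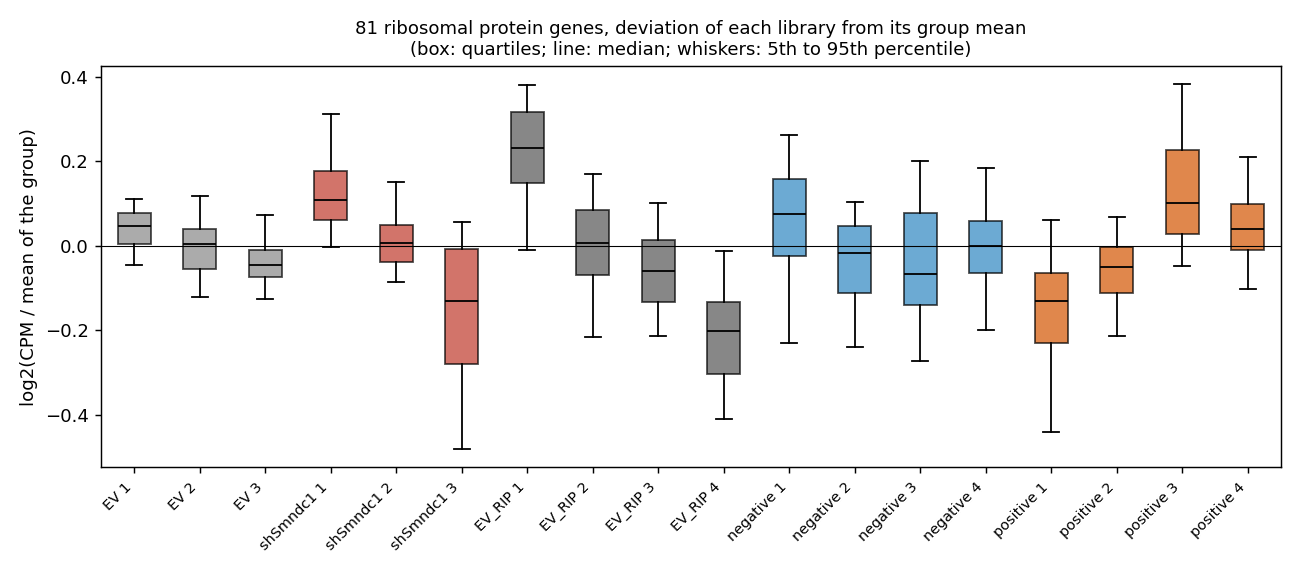
Deviation of each library from the mean of its group (y axis, log2 of CPM over the group mean) over 81 ribosomal protein genes, with boxes for the quartiles, lines for the median and whiskers from the 5th to the 95th percentile. EV_RIP replicate 1 (median 0.23) and replicate 4 (median -0.20) lie farthest from 0.

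In the unsorted knockdown no ribosomal protein gene passed the test. Of 81 genes tested in shSmndc1 against EV, 0 were called higher and 0 lower at an adjusted p of 0.05 (edgeR's quasi-likelihood test), while 14.7% of all 18202 genes tested were called, 7.22% higher and 7.5% lower. At an unadjusted p under 0.05 there were 11 of the 81 members, against 5923 of all genes tested (32.5%). DESeq2 called 4 members, all lower: Rpl15, Rpl22l1, Rpl3 and Rpl6. The median log2 fold change of the family was -0.08, against -0.00 over all genes, with 54 members below 0 and 27 above. Fold changes ran from -0.67 to 0.35, and the upper end was Rpl3l with its few counts. The 95% interval of the fold change lay within 1.5-fold in both directions for 63 of the 81 members (77.8%) and for 29.3% of all genes. The median standard error was 0.13 in the family and 0.19 over all genes. EV and shSmndc1 values did not overlap for 11 members that were higher and 18 that were lower, which is 35.8% of the family, against 39.5% of all genes.

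The largest differences of the unsorted knockdown were in large-subunit genes. Rpl15, a large-subunit protein, had 229.6, 247.3 and 234.3 CPM in EV, against 196.1, 175.6 and 153.2 CPM under the shRNA. All shSmndc1 libraries lay below all EV libraries, with a log2 fold change of -0.44 (SE 0.13, adjusted p = 0.0505, edgeR). Rpl6 had 424, 427 and 406 CPM in EV, against 338, 296 and 155 CPM under the shRNA (-0.67, adjusted p = 0.0995). Its lowest value was that of shSmndc1 replicate 3, and the log2 fold change without this library was -0.40 (adjusted p = 0.0270). Rpl3, which lies near the peptidyl transferase centre, had 420, 536 and 461 CPM in EV, against 390, 354 and 269 CPM under the shRNA (-0.48, adjusted p = 0.0835). None of these passed edgeR's test with all libraries and TMM scaling. Without shSmndc1 replicate 3, 4 members were called lower, Rpl15, Rpl6 and Rpl19 among them, and without shSmndc1 replicate 1 likewise 4 (Rpl15, Rpl6, Rpl13a and Rpl22l1). Replicate 3 also had the highest share of mitochondrially encoded counts of experiment 1, 4.76%, and the most Malat1, a nuclear RNA, with 1083 CPM against 174 to 478 CPM in the other 5 libraries. Whether these differences have a part in its low ribosomal protein values was not tested.

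Rpl22 and Rpl22l1, paralogs that can take the same place in the large subunit, had fold changes of opposite sign. Rpl22l1 had 53.6, 59.1 and 49.1 CPM in EV, against 45.6, 32.8 and 29.4 CPM under the shRNA. The groups did not overlap, and the log2 fold change was -0.59 (SE 0.17, adjusted p = 0.0505, edgeR), which did not pass. With DESeq2 the adjusted p was 0.0190. Rpl22 had 185, 190 and 176 CPM in EV, against 205, 202 and 209 CPM under the shRNA, again without overlap and not called (0.16, adjusted p = 0.330). Per length, in FPKM, the ratio of Rpl22l1 to Rpl22 was 1.08 ± 0.061 in EV and 0.644 ± 0.156 in shSmndc1 (SD, n = 3). In experiment 2 it was 1.06 ± 0.328 in EV_RIP, 0.975 ± 0.141 in negative cells and 0.758 ± 0.111 in positive cells (SD, n = 4). The range in positive cells, 0.647 to 0.895, overlapped that of EV_RIP, 0.742 to 1.52. In positive cells Rpl22 had 245, 219, 266 and 235 CPM, against 202, 209, 211 and 190 CPM in EV_RIP. These groups did not overlap, and the difference of 0.25 on the log2 scale was called by DESeq2 (adjusted p = 0.0257) and not by edgeR (adjusted p = 0.068). Of the other pairs, Rps27l was at 0.189 to 0.331 of the FPKM of Rps27 over all 18 libraries, and EV overlapped shSmndc1. Rpl7l1 was at 0.0631 to 0.0702 of the FPKM of Rpl7 in EV and 0.0712 to 0.0808 in shSmndc1, without overlap, and at 0.0563 to 0.0872 in experiment 2, where the groups overlapped. Rpl3l had too few counts for a ratio to Rpl3.

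**Figure D3:**
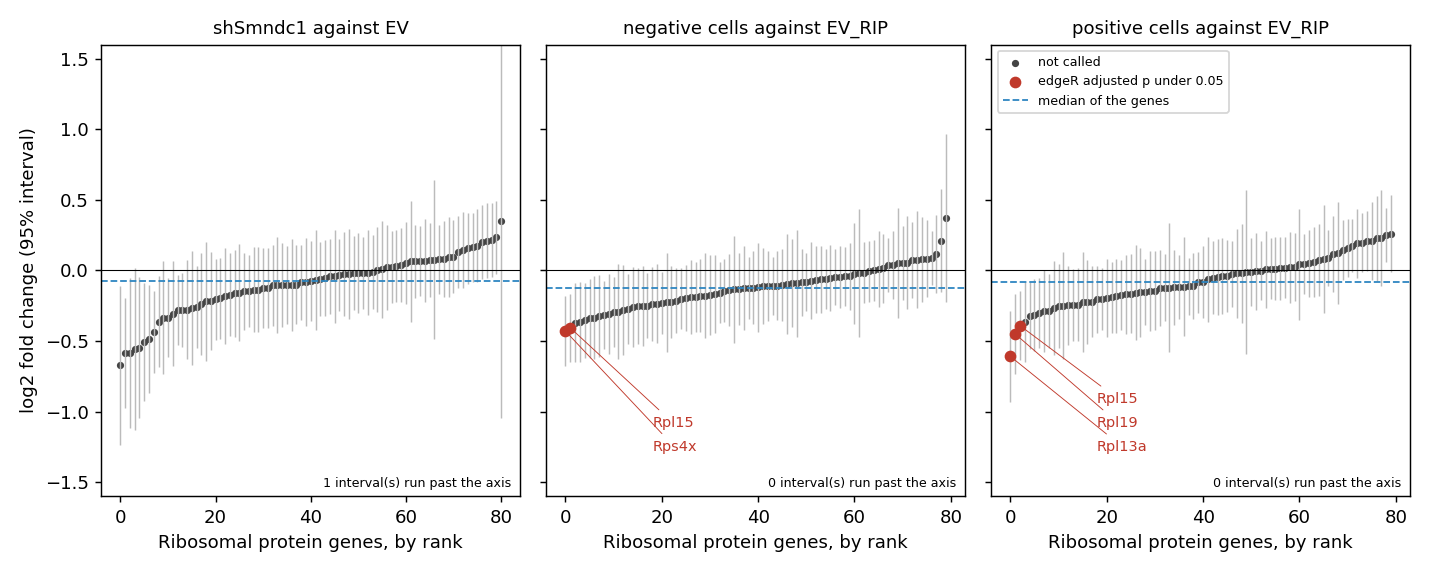
Log2 fold change (y axis, with 95% intervals) of each ribosomal protein gene tested, ranked on the x axis, in the 3 comparisons with empty vector. The dashed line is the family's median, at -0.08, -0.12 and -0.08 from left to right, and red points are genes past an adjusted p of 0.05 (edgeR), of which there are 0, 2 and 3.

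In negative cells, 2 of 80 members were called lower than in EV_RIP and 0 higher, while 13.9% of all 18897 genes tested were called, 8.17% higher and 5.69% lower (edgeR). The called members were Rps4x, the X-linked small-subunit gene, and Rpl15. The family's median log2 fold change was -0.12 against -0.01 over all genes, with 64 members below 0 and 16 above. Without EV_RIP replicate 1 this median was -0.05. The 95% interval lay within 1.5-fold for 68 of 80 members (85.0%) and for 34.4% of all genes. EV_RIP and negative libraries did not overlap for 2 members, both lower, which is 2.5% of the family against 14.4% of all genes.

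Rps4x (chromosome X, 102184941 to 102189394, minus strand) stood at 628.6, 593.8, 503.2 and 490.8 CPM in EV_RIP and 494.1, 411.3, 381.4 and 358.3 CPM in negative cells. Negative replicate 1 lay just above the lowest EV_RIP library, so the groups overlapped. The log2 fold change was -0.43 (SE 0.12, adjusted p = 0.0295, edgeR). Rpl15 (chromosome 14, 18267823 to 18271391, minus strand) stood at 341.1, 272.2, 273.4 and 256.0 CPM in EV_RIP and 249.1, 221.6, 185.0 and 205.7 CPM in negative cells. Here the groups did not overlap (-0.41, SE 0.11, adjusted p = 0.0321). Both calls depended on single libraries. No member was called once EV_RIP replicate 1 was left out, and the adjusted p was 0.0846 for Rps4x and 0.0950 for Rpl15. All genes called then fell from 2620 to 539. Without the shallow negative replicates 3 and 4, in which Rn7sk, a small nuclear RNA that is not polyadenylated, was high (161 and 45.4 CPM, against 2.44 to 18.6 CPM in the rest of experiment 2), no member was called and 4 of all genes were. Without negative replicate 1, 14 members were called lower, and 5831 of all genes were called. No member was called without negative replicate 2, 3 or 4.

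In positive cells, 3 of 80 members were called lower than in EV_RIP and 0 higher, while 17.4% of all 18897 genes tested were called, 8.47% higher and 8.92% lower (edgeR). The called members were Rpl13a, Rpl15 and Rpl19, all of the large subunit. The family's median log2 fold change was -0.08 against 0.00 over all genes, with 53 members below 0 and 27 above. Without EV_RIP replicate 1 this median was 0.03, and no member was called. All genes called then fell from 3286 to 1565. The 95% interval lay within 1.5-fold for 73 of 80 members (91.2%) and for 33.6% of all genes. EV_RIP and positive libraries did not overlap for 7 members, 6 lower and 1 higher, which is 8.75% of the family against 23.4% of all genes. Positive and negative cells were compared with the same EV_RIP libraries, so their values are not independent of each other.

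Rpl13a, a large-subunit protein also known for a role in silencing inflammatory mRNAs, had the largest fold change of the called members. It stood at 35.3, 22.2, 27.4 and 25.4 CPM in EV_RIP and 18.6, 15.2, 19.6 and 18.8 CPM in positive cells, with no overlap. The log2 fold change was -0.61 (SE 0.15, adjusted p = 0.0161, edgeR). It was called in 13 of 15 other settings, and the adjusted p was 0.0572 without EV_RIP replicate 1. In negative cells it stood at 25.3, 21.4, 24.5 and 19.8 CPM, between both groups (-0.28 against EV_RIP, adjusted p = 0.208). In experiment 1 it was at 20.8 to 21.2 CPM in the 3 EV libraries and at 18.3, 15.2 and 10.8 CPM under the shRNA, without overlap and not called (-0.51, adjusted p = 0.0966). Rpl13a (chromosome 7, 45125558 to 45128761, minus strand) shares 35.4% of its exonic bases on its own strand with Gm45713, Mir5121 and Snord33, of which Gm45713 had 0 counts in all libraries. How reads in the shared bases were counted is not given, so the counts of Rpl13a may hold only part of its reads. Its mean over all libraries was 18.5 FPKM, and of the tested members only Rps10 and Rpl3l were lower.

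Rpl15 stood at 229.3, 209.0, 212.5 and 220.5 CPM in positive cells, below all EV_RIP libraries (-0.39, SE 0.11, adjusted p = 0.0314, edgeR). It was the only member called in both sorted populations, and its fold changes in the 3 comparisons with empty vector were -0.44, -0.41 and -0.39. Rpl19 (chromosome 11, 98026710 to 98030492, plus strand), which reaches across to the small subunit, stood at 1414, 1160, 1093 and 872 CPM in EV_RIP and 782, 788, 821 and 932 CPM in positive cells. Positive replicate 4 lay above EV_RIP replicate 4, so the groups overlapped (-0.45, SE 0.13, adjusted p = 0.0333). In experiment 1, Rpl19 was at 884, 826 and 819 CPM in EV, against 706, 651 and 375 CPM under the shRNA (-0.55, adjusted p = 0.124). The lowest value was that of shSmndc1 replicate 3, and without it the fold change was -0.32 (adjusted p = 0.0494). The calls in positive cells were kept in 9 of 15 other settings for Rpl15 and in 7 of 15 for Rpl19. Their adjusted p was 0.105 and 0.112 without EV_RIP replicate 1.

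**Figure D4:**
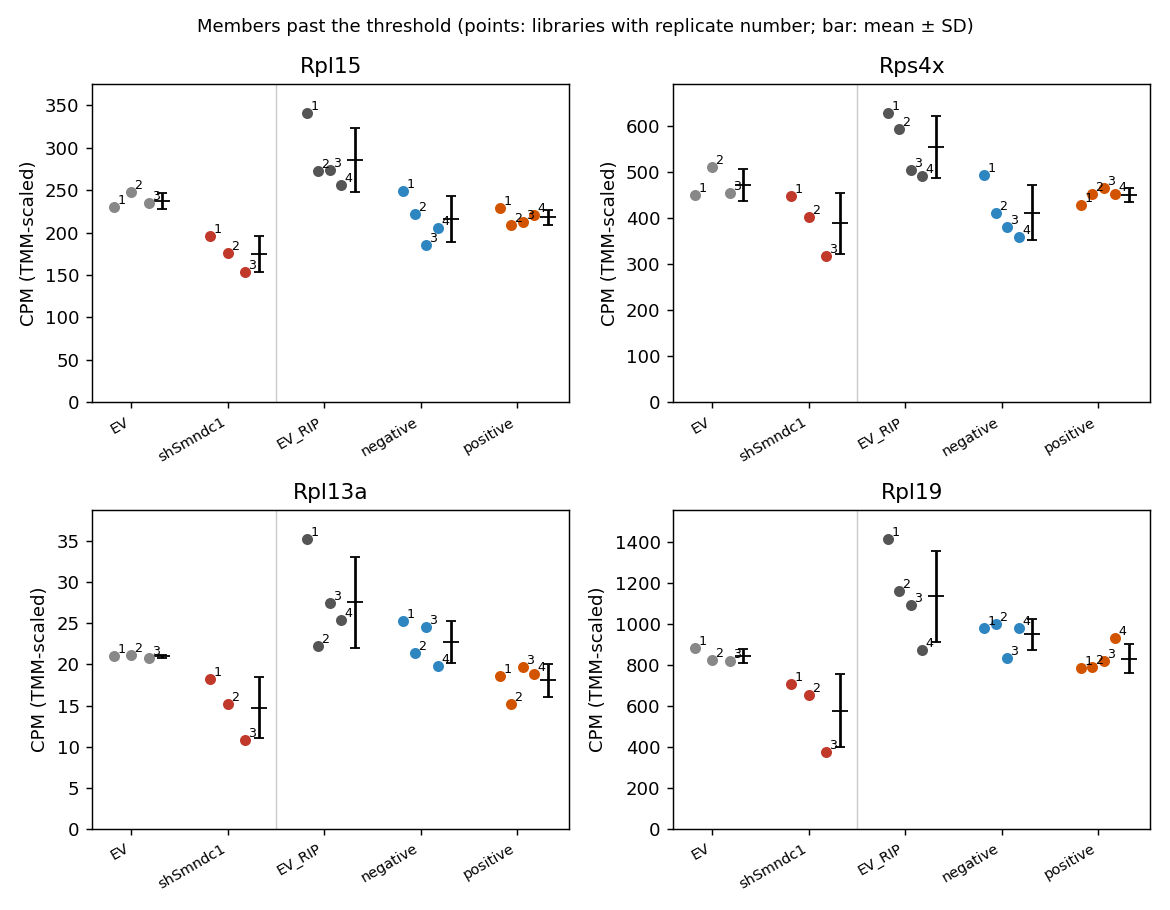
CPM (y axis) of the 4 ribosomal protein genes past the threshold in at least 1 comparison, per library (points, numbered by replicate) with the mean ± SD of each group (bars). EV_RIP replicate 1 is the highest library of experiment 2 for each of the 4 genes, as for Rpl15 with 341.1 CPM against 185.0 to 273.4 CPM in the other 11.

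Members with special roles were not called by the same test over all libraries. Rplp0, the base of the stalk that recruits elongation factors, stood at 1157, 854, 830 and 713 CPM in EV_RIP, 789, 679, 625 and 663 CPM in negative cells and 708, 660, 712 and 682 CPM in positive cells. The log2 fold changes were -0.37 (adjusted p = 0.075) and -0.36 (adjusted p = 0.0705, edgeR). EV_RIP replicate 1 stood far above the other EV_RIP libraries, and without it the fold changes were -0.21 and -0.19. The stalk proteins Rplp1 and Rplp2 had fold changes of -0.29 and -0.09 in negative and -0.16 and -0.25 in positive cells. Rpsa, a small-subunit protein also described as a laminin receptor, had -0.22 in shSmndc1, -0.33 in negative and -0.22 in positive cells, and without EV_RIP replicate 1 -0.18 and -0.06 in the latter groups. Rpl5 and Rpl11, which bind Mdm2 when they are not built into ribosomes, had -0.27 and -0.07 in shSmndc1, -0.11 and -0.12 in negative cells, and -0.11 and 0.02 in positive cells. Rps27a differed least of these, with -0.03, -0.04 and 0.01.

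With all libraries, the medians of both subunits lay below 0 in each comparison with empty vector. Without EV_RIP replicate 1 the median of the whole family was -0.05 in negative and 0.03 in positive cells. Medians of its parts were not computed without that library. In shSmndc1 against EV the median log2 fold change was -0.06 over 49 large-subunit genes and -0.10 over 32 small-subunit genes. In negative cells against EV_RIP it was -0.11 and -0.16, and in positive cells -0.02 and -0.12. In positive cells 26 of 48 large-subunit and 27 of 32 small-subunit genes lay below 0, against 37 and 27 in negative cells. Genes that hold a snoRNA had a median of -0.13 against -0.03 for the rest of the family in shSmndc1, -0.12 against -0.12 in negative cells and -0.12 against -0.03 in positive cells. Counts of 3 of the 4 snoRNAs within the span of Rpl13a were also tested. No test is given for Snord33, which had 2 to 35 counts per library. In shSmndc1 against EV none was called, with log2 fold changes of 0.68 for Snord32a, 0.03 for Snord34 and 0.01 for Snord35a. Snord32a, at 0.563 ± 0.301 CPM in EV_RIP, stood at 1.85 ± 0.219 CPM in negative and 2.16 ± 0.723 CPM in positive cells (SD, n = 4), with log2 fold changes of 1.70 (adjusted p = 0.0170) and 1.91 (adjusted p = 0.00635, edgeR). Snord34 had 1.68 and 1.80 (adjusted p = 0.0233 and 0.0130). Snord35a had 1.64 in positive cells (adjusted p = 0.0161) and 0.94 in negative cells (adjusted p = 0.130). In positive cells all 3 were also called without EV_RIP replicate 1, with 1.66, 1.55 and 1.58. In negative cells none was called without negative replicates 3 and 4, with log2 fold changes of 1.71, 1.67 and 1.24. In the same cells Snord34 was not called without EV_RIP replicate 1 (1.42, adjusted p = 0.0586, edgeR). These are low values from libraries selected for poly(A), and mature snoRNAs lack such a tail. The nuclear RNA Malat1 was also called higher, by 1.49 in negative cells (adjusted p = 0.0112) and 1.33 in positive cells (adjusted p = 0.00779, edgeR) on the log2 scale.

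Between positive and negative cells, 0 of 80 members were called in the fit of 12 libraries without a block, and of all 18897 genes 0% were (edgeR). At an unadjusted p under 0.05 there were 5 members and 2314 genes, and DESeq2 called 0 members and 315 genes. The median log2 fold change of positive against negative cells was 0.07 in the family and -0.01 over all genes, with 54 members above 0 and 26 below. The 95% interval lay within 1.5-fold for 76 of 80 members (95%) and for 44.0% of all genes. Rps15a had the largest positive value, 0.30 (adjusted p = 0.322), with 252, 206, 190 and 189 CPM in negative and 232, 281, 256 and 264 CPM in positive cells. These ranges overlapped through negative replicate 1. In a fit of the 8 sorted libraries alone with the replicate number as a block, Rps2, a small-subunit protein, was the 1 member called, among 1517 of all genes. It was at 461, 490, 602 and 659 CPM in negative and 385, 416, 467 and 503 CPM in positive cells. Positive cells were lower for 4 of 4 replicate numbers (-0.31, SE 0.085, adjusted p = 0.0369, edgeR).

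The effect of the shRNA in the unsorted cells was also set against its effect in positive cells, in a fit over all 18 libraries. Of 81 members 0 differed, and of all 20036 genes 0% did (edgeR). No member had an unadjusted p under 0.05, where 861 of all genes did, and DESeq2 called 3 of all genes. The median of the difference of log2 fold changes over the family was -0.00. Its 95% interval lay within 1.5-fold for 59 of 81 members, so that larger differences between the experiments remain possible for the others.

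Genes that make or regulate ribosomes were counted in the same fits, where 7.22% of all genes were called higher and 7.5% lower in shSmndc1, 8.17% and 5.69% in negative cells, and 8.47% and 8.92% in positive cells. Counts of these short lists are read against those shares, and no difference from them was tested. The shares belong to the fits with all libraries. Without EV_RIP replicate 1, all genes called were 539 in negative and 1565 in positive cells. Without negative replicates 3 and 4, they were 4 in negative cells. Of 5 ribosomal protein genes outside the name rule (among them Fau and Rack1), none was called in any comparison with all libraries. Of 24 translation factors and other genes with TOP mRNAs, 0 were called in shSmndc1. In negative cells 2 were higher and 1 lower: the noncoding snoRNA hosts Gas5 (1.16) and Snhg8 (0.76) rose, and Eef1a1, the factor that brings tRNA to the ribosome, fell by 0.53 on the log2 scale, from 2885 ± 560 to 2003 ± 427 CPM (SD, n = 4). In positive cells Gas5 (1.02) and Snhg8 (0.76) rose and none of the 24 fell. With EV_RIP replicate 1 left out, 0 of the 24 were called in negative cells and Snhg8 was the 1 called in positive cells. Leaving out negative replicates 3 and 4 also gave 0 in negative cells, and leaving out shSmndc1 replicate 3 gave 1 higher in shSmndc1, Eif4b (0.34). The list's median log2 fold change was -0.04, -0.14 and -0.08 in the 3 comparisons with empty vector, and 0.08 in shSmndc1 without replicate 3.

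Ribosome biogenesis factors assemble and process the particle's parts in the nucleolus. Of 42 such factors, 1 rose and 2 fell in shSmndc1: Bysl, which acts in making the small subunit, rose (0.53, 103.6 ± 9.33 against 71.6 ± 5.09 CPM, n = 3), and Nhp2, a protein of box H/ACA snoRNPs (-1.13), and the nucleolar GTPase Gnl3l (-0.60) fell. In negative cells 7 rose and 0 fell, among them Gnl3 (0.91), Nop56 (0.53), a protein of box C/D snoRNPs, and Taf1d (1.02), a factor of RNA polymerase I. In positive cells Pno1 rose (0.41) and Gnl3l (-0.79), Fbl (-0.41), the methyltransferase of box C/D snoRNPs, and Wdr12 (-0.30) fell. The median over the list was -0.06 in shSmndc1, 0.16 in negative and 0.03 in positive cells. Without EV_RIP replicate 1, 1 factor was higher in negative cells (Nop56, 0.56) and 1 lower in positive cells (Gnl3l, -0.77), and without negative replicates 3 and 4 none was called in negative cells. Without shSmndc1 replicate 3, 3 were higher and 4 lower in shSmndc1, Bysl, Nhp2 and Gnl3l among them.

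Of 21 regulators of ribosomal protein synthesis, Tsc1, an inhibitor of mTOR signalling, rose in each comparison with empty vector, by 0.57 in shSmndc1, 0.40 in negative and 0.48 in positive cells on the log2 scale. Myc, a transcription factor that drives ribosome production, rose in negative cells from 5.78 ± 1.96 to 32.02 ± 18.3 CPM (2.45) and in positive cells to 17.7 ± 8.001 CPM (1.61, SD, n = 4). Zfp622, which takes part in late maturation of the large subunit, rose in negative cells (0.99), and the S6 kinase gene Rps6kb2 in positive cells (0.37). Ipo9, an importin, fell in shSmndc1 (-0.45), and the import receptor Tnpo1 (-0.54) and Eif4ebp2, an inhibitor of cap-dependent translation (-0.35), fell in positive cells. The counts of genes called were 1 higher and 1 lower, 3 higher and 0 lower, and 3 higher and 2 lower, with medians of 0.12, 0.10 and -0.04. Without shSmndc1 replicate 3 the median in shSmndc1 was 0.02 and the fold change of Tsc1 0.37, still called. With EV_RIP replicate 1 left out, Myc was the 1 regulator called in negative cells (2.28) and Tnpo1 the 1 called in positive cells (-0.60). Without negative replicates 3 and 4, none was called in negative cells.

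The mitochondrial ribosomal proteins, a separate family of 77 tested genes, gave 0 higher and 3 lower in shSmndc1 (Mrps10 -0.68, Mrpl13 -0.49 and Mrpl15 -0.47), 0 higher and 6 lower in negative cells, with Mrpl33 (-0.53), Mrpl14 (-0.59) and Mrps11 (-0.38) first by p, and 0 higher and 9 lower in positive cells, with Mrps10 (-0.70), Mrpl14 (-0.58) and Mrpl33 (-0.43) first. Of all genes, 7.5%, 5.69% and 8.92% were called lower in these comparisons. Their medians were 0.01, -0.16 and -0.12, and without EV_RIP replicate 1 -0.07 in negative and -0.00 in positive cells. Without shSmndc1 replicate 3, 1 was higher and 5 were lower in shSmndc1. Without EV_RIP replicate 1, none was called in either sorted population, and without negative replicates 3 and 4 none was called in negative cells. Mrps10 fell in shSmndc1 from 41.2 ± 3.53 to 25.6 ± 1.48 CPM (SD, n = 3, adjusted p = 0.0121, edgeR), and was also called without shSmndc1 replicate 3 (-0.65, adjusted p = 0.0118).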

How the data were processed

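RNA-seq of 18 libraries was analysed from the tables of raw counts per gene that the authors deposited for each experiment. The submitters' processing notes name GRCm38/mm10, DESeq2 1.30.0, Picard 2.19.2 and STAR 2.7.5a. Which program counted reads, and whether by strand, is not given in the sources used here, so reads of overlapping genes cannot be told apart. The authors also deposited FPKM, used here only for levels between genes and paralog ratios. Tests used edgeR 4.0.16 in R 4.3.3 (filterByExpr, TMM, quasi-likelihood test), with Benjamini-Hochberg adjustment over all genes tested and a threshold of 0.05. Experiment 1 made a fit of 6 libraries, experiment 2 of 12, and the difference of effects of 18. CPM use TMM-scaled library sizes. DESeq2 1.42.0 was an alternative. On simulated data with log2 changes of 1 in randomly drawn genes of shSmndc1 against EV, 66.7% were recovered, and 93.6% of changes of 2. For positive against negative cells these were 58.7% and 87.5%. Members ran only from -0.67 to 0.35 in shSmndc1 against EV, so these rates do not tell how often differences of that size would be found. The members and lists were chosen with earlier results of these data known. Members were named by role (paralogs, stalk, Rpsa, Rpl5, Rpl11, Rps27a), for passing the threshold, or for the highest and lowest levels, and list genes by smallest p among those called. Rpl6, Rps15a, Rps2 and the snoRNAs were singled out after their values were seen. Same-numbered negative and positive libraries correlated at 0.620, 0.355, 0.136 and 0.311 in their deviations from the group means. The labels do not state that replicate numbers mark pairs.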

Additional observations from a re-analysis of the deposited data

Results flagged for a closer look

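Of 39 groups of 4 libraries tested for a single library far from the others, 1 was marked, and chance marks about 1 in 20. Rpl19 in negative replicate 3 stood at 835.9 CPM, while the other negative libraries lay between 979.3 and 998.8 CPM, a gap of 0.880 of the group's range. That library was also the shallowest, with 8084574 counts.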

How the results depend on the processing

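Counts of called ribosomal protein genes were small and moved with the setting. In shSmndc1 against EV, where 0 were called lower, there were 2 with median-of-ratios factors, 2 with library totals only, 2 with a replicate block (Rpl22l1 and Rpl6), 8 with no filter on low counts (4165 of all genes) and 4 with DESeq2. Leaving out 1 library gave 0 to 4 (181 to 3336 of all genes). In negative cells against EV_RIP, where 2 were lower, there were 0 with library totals only, 4 with no filter, 7 with the replicate block (Rplp0 and Rpl7 among them; 4597 of all genes), 0 with only the 2 groups compared (1289) and 0 without negative replicates 3 and 4 (4). DESeq2 called 4019 of all genes. Leaving out 1 library gave 0 to 14 (159 to 5831). In positive cells against EV_RIP, where 3 were lower, library totals only gave 1 higher and 1 lower. DESeq2 gave 1 higher (Rpl22), and Rpl13a, Rpl15, Rpl19 and Rpl6 lower. The replicate block gave 5 lower (Rpl3 and Rplp0 added, 5079 of all genes). Leaving out 1 library gave 0 to 5 lower (1258 to 3586).

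For positive against negative cells, all genes called were 150 with no filter, 78 with the replicate block over 12 libraries, 1517 with the block over the sorted libraries only, an alternative added after seeing the data that called 1 member lower, and 315 with DESeq2. Leaving out 1 library gave 0 to 517. For the difference of effects they were 5 with no filter and 3 with DESeq2. In deviations from the group means, same-numbered EV_RIP and negative libraries correlated at 0.28, 0.49, -0.20 and -0.29. EV_RIP and positive libraries gave 0.26, 0.43, -0.03 and -0.05, and EV and shSmndc1 libraries -0.03, -0.01 and 0.26. Whether those blocks hold true pairs cannot be told from these values. Rpl22l1 in negative cells, near 0 at -0.02, turned to 0.0743 with library totals only, 0.00504 with the replicate block, 0.15 without EV_RIP replicate 4 and 0.06 without negative replicate 2, and leaving out 1 library moved it between -0.15 and 0.15. As a share of nuclear protein-coding counts the family held 2.87% in EV and 2.74% in shSmndc1. In experiment 2 it held 3.58% in EV_RIP, 3.48% in negative and 3.59% in positive cells. With library totals only, the share of called genes that were higher in negative cells went from 58.9 to 76.0%, and the median of all genes from -0.01 to 0.08. The family's median stayed below 0 over all settings in shSmndc1 (-0.14 to -0.03) and negative cells (-0.20 to -0.03), and ran from -0.14 to 0.03 in positive cells. The cause of these differences was not tested. List counts without single libraries were added after seeing the data.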
